A study of Homo sapiens with 8 samples.

Results

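Broad MED1 regions are stretches of more than 2 kb that were called as a single MED1 peak in GM12878 cells. GM12878 is an established line of lymphoblastoid cells that began as B lymphocytes. The regions were chosen by the width of MED1 replicate 2 peaks on chromosomes 1 to 22 and X, and each had to overlap at least 1 MED1 replicate 1 peak by 1 bp or more. Of 45046 MED1 replicate 2 peaks, 1227 were wider than 2000 bp and 1219 of these met replicate 1. The members were thus 2.71% of all replicate 2 peaks and 8.07% of the 15111 peaks that both replicates shared. The other 13892 shared MED1 regions, of up to 2000 bp, serve below as the comparison.

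The series profiled 3 chromatin proteins by ChIP-seq, which sequences the DNA that an antibody pulls down together with the crosslinked protein. It had 2 libraries each for NIPBL, SMC1A and MED1, and the pool of 2 whole cell extract libraries was the control for every peak list. All cells were untreated GM12878, fixed with 1% formaldehyde for 10 min, so the comparisons are between proteins and between places in the genome. Whether the replicates were grown as separate cultures is not stated, so p-values and SDs measure a spread that may be technical.

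MED1 belongs to Mediator, a complex that carries signals from factors bound at enhancers to the transcription machinery. Long stretches dense in Mediator are known from super-enhancers, groups of neighbouring enhancer elements that often lie near genes of cell identity. NIPBL loads cohesin onto DNA, and SMC1A is part of the ring-shaped cohesin complex, which extrudes and holds chromatin loops and is known to gather most strongly at sites bound by CTCF.

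The NIPBL lists held 21422 and 15357 peaks in replicates 1 and 2, and the SMC1A lists held 56510 and 68228. MED1 replicate 1 held 18131 peaks. A summit is the position of highest signal in a peak, and each peak had 1. Read totals were not used here. The number of fragments piled up at a summit was solved from the authors' fold enrichment and p-value of the peak, on the assumption that both follow the peak caller's usual formulas. Inside the broad regions the median was 32 and 30 fragments for the NIPBL libraries, 29 in each SMC1A library and 106 for MED1 replicate 2. The lowest called summits there rested on 14 and 12 fragments for NIPBL and on 12 and 10 for SMC1A. These are the lowest among called peaks and not a limit of detection, which also depends on the local control. All intervals below are exact Clopper-Pearson 95% intervals, and they cover counting error only.

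The broad regions ranged from 2002 to 20758 bp, with a median of 2713 bp and quartiles of 2277 and 3749.5 bp. Together they covered 4.15 Mb, against 11.3 Mb in the other shared regions, whose median width was 715 bp. By width, 740 were of 2 to 3 kb, 326 of 3 to 5 kb, 128 of 5 to 10 kb and 25 wider than 10 kb. They were also among the strongest MED1 peaks. The median of the authors' fold enrichment in MED1 replicate 2 was 14.1 in broad regions and 7.35 in the other shared regions, and 90.9% of broad regions stood in the top 20% of the replicate 2 list, against 50.2% of the others. Width and strength therefore moved together in the list that chose the members, and these values are a description of the choice.

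MED1 replicate 1, a shorter list, split most broad regions into several peaks. Of the 1219 regions, 937 (76.9%) met at least 2 replicate 1 peaks, and a region held 2.37 replicate 1 summits on average and 11 at most. Replicate 1 peaks covered a median of 58.1% of a region's length, with quartiles of 42.9% and 71.9%. A broad region was therefore 1 interval in replicate 2 and usually a run of shorter intervals in replicate 1.

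The widest region, chr14:22943466-22964223 (hg19), spanned 20758 bp and met 11 MED1 replicate 1 peaks that covered 82.4% of it. It held 4 summits in each NIPBL library, and 5 and 6 SMC1A summits. The second widest, chr21:26932133-26947150, held 6 and 9 NIPBL summits, and 2 and 6 SMC1A summits. At 49.6, its MED1 replicate 2 fold enrichment was above that of the widest region, 35.7. NIPBL summits were most numerous, over both libraries, in chr6:138187112-138197294, a region of 10183 bp with 9 and 10 NIPBL summits and 5 SMC1A summits in each library. SMC1A summits were most numerous in chr9:37025510-37038284, of 12775 bp, with 8 and 5 NIPBL summits and 9 and 10 SMC1A summits. This region had a MED1 replicate 2 fold enrichment of 9.92, below the median of the members. The region chr17:56405412-56418858 was among the 6 widest and held 8 and 10 NIPBL summits, and 6 and 7 SMC1A summits. Its NIPBL total was equal to that of chr3:16547545-16559850, with 12 and 6 NIPBL summits, and only the region on chromosome 6 had more.

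**Figure D1:**
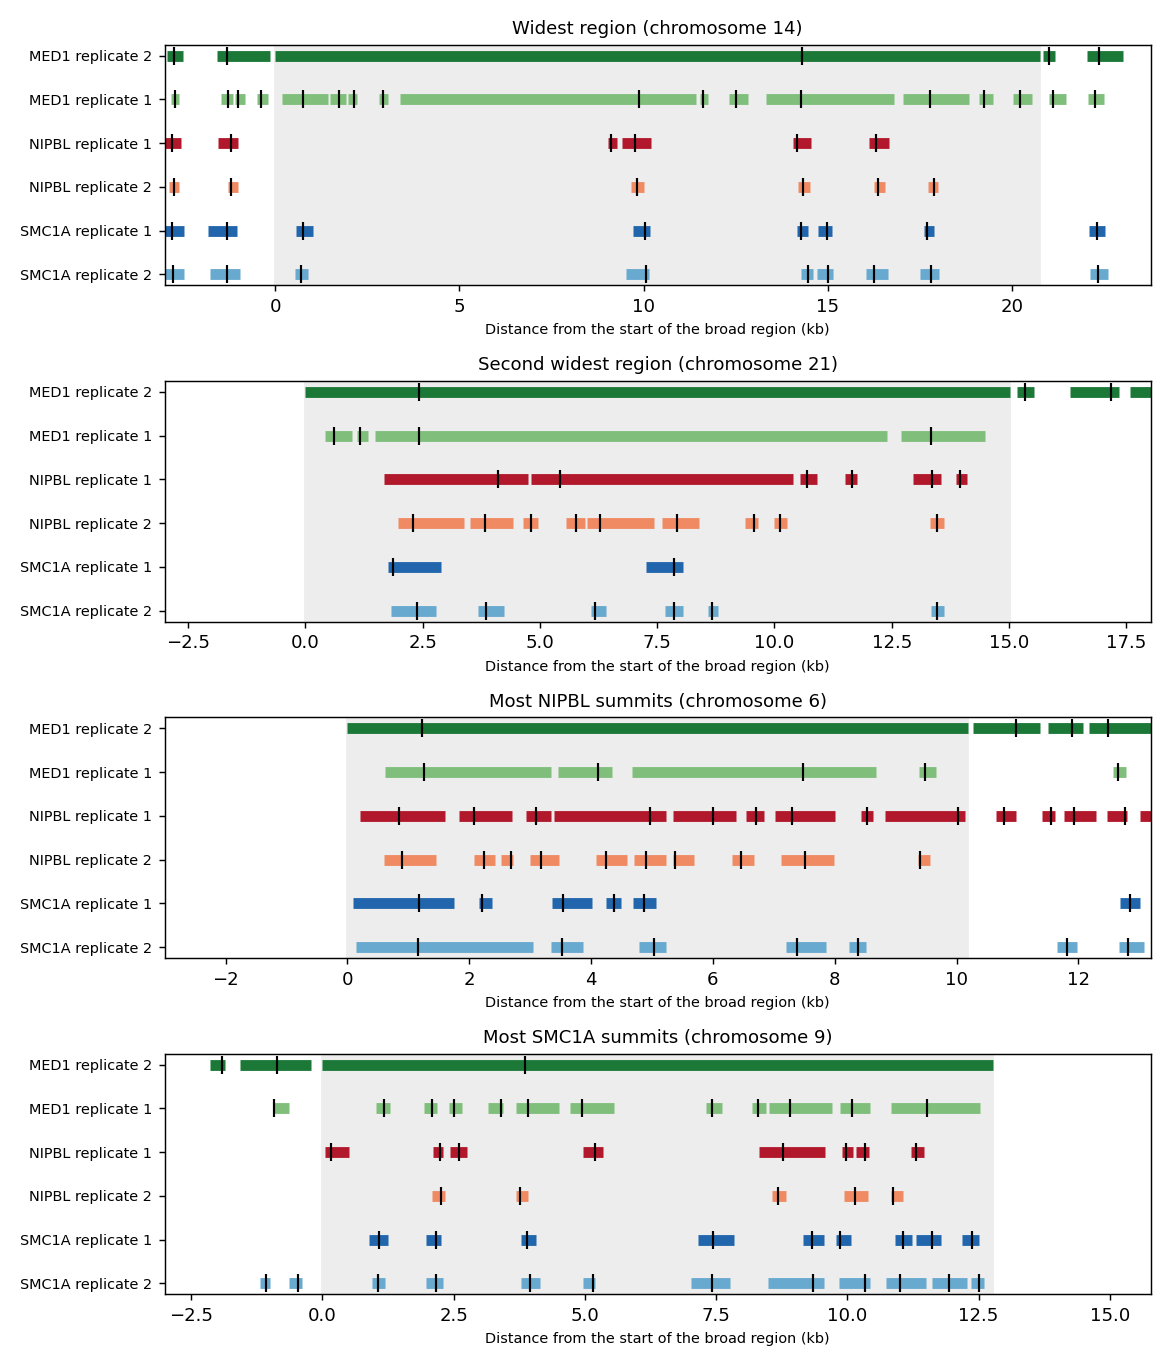
Peaks (bars) and their summits (black ticks) of the MED1, NIPBL and SMC1A libraries along 4 broad MED1 regions, by distance in kb from the start of the region, which is shaded. The single MED1 replicate 2 peak of each region was split in MED1 replicate 1 and held 4 to 10 NIPBL and 2 to 10 SMC1A summits per library.

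Most broad regions held NIPBL, and most held SMC1A. A NIPBL summit lay inside 91.0% of regions in replicate 1 (1109 of 1219, interval 89.2 to 92.5) and 85.8% in replicate 2 (1046, 83.7 to 87.7). An SMC1A summit lay inside 82.0% in replicate 1 (1000, 79.8 to 84.2) and 91.4% in replicate 2 (1114, 89.7 to 92.9). The same was true of 33.9% and 26.8% of all MED1 replicate 2 peaks for NIPBL, and of 33.1% and 44.9% for SMC1A. Among the other shared regions, the shares were 60.5% and 52.7% for NIPBL and 51.5% and 67.1% for SMC1A. A longer region has more room for a summit, and the comparison at a fixed distance from the MED1 summit is given further below.

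NIPBL and SMC1A did not differ beyond the spread between libraries in how many broad regions they occupied. NIPBL averaged 88.4% ± 3.65 and SMC1A 86.7% ± 6.61 (SD, n = 2 libraries each), a difference of 1.68 points that was smaller than either spread (exact permutation test over libraries, two-sided, p = 1; with n = 2 against n = 2 the smallest p is 0.333). The values overlapped, since each SMC1A library lay outside the NIPBL pair on a different side. This closeness depended on the length of the SMC1A lists. With each list reduced to its strongest 15357 peaks, the length of the shortest, the difference was 74.4 points. Its sign also turned with single libraries, to -0.902 points without NIPBL replicate 1 and -2.99 points when SMC1A replicate 1 was left out, and it was 4.27 points without NIPBL replicate 2, 6.36 points without SMC1A replicate 2 and 7.51 points with members taken from MED1 replicate 1 alone.

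In each library, 50.04% or more of broad regions held several summits. The mean number per region was 2.07 and 1.74 for NIPBL and 1.74 and 2.22 for SMC1A, and the largest number was 12 and 10 for NIPBL and 9 and 10 for SMC1A. At least 2 summits were found in 61.0% and 50.04% of regions for NIPBL and in 50.04% and 66.04% for SMC1A. The protein means, 1.90 ± 0.235 for NIPBL and 1.98 ± 0.337 for SMC1A (SD, n = 2 libraries each), differed by -0.0755 summits per region, less than either spread (exact permutation test, two-sided, p = 0.667). With equal numbers of top peaks this difference was 1.54. It was 0.0906 without NIPBL replicate 2, 0.163 without SMC1A replicate 2 and 0.210 with members taken from MED1 replicate 1 alone, against -0.242 without NIPBL replicate 1 and -0.314 when SMC1A replicate 1 was left out. The NIPBL peaks inside covered 35.0% and 24.6% of a region's length on average, and the SMC1A peaks 26.5% and 37.5%.

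**Figure D2:**
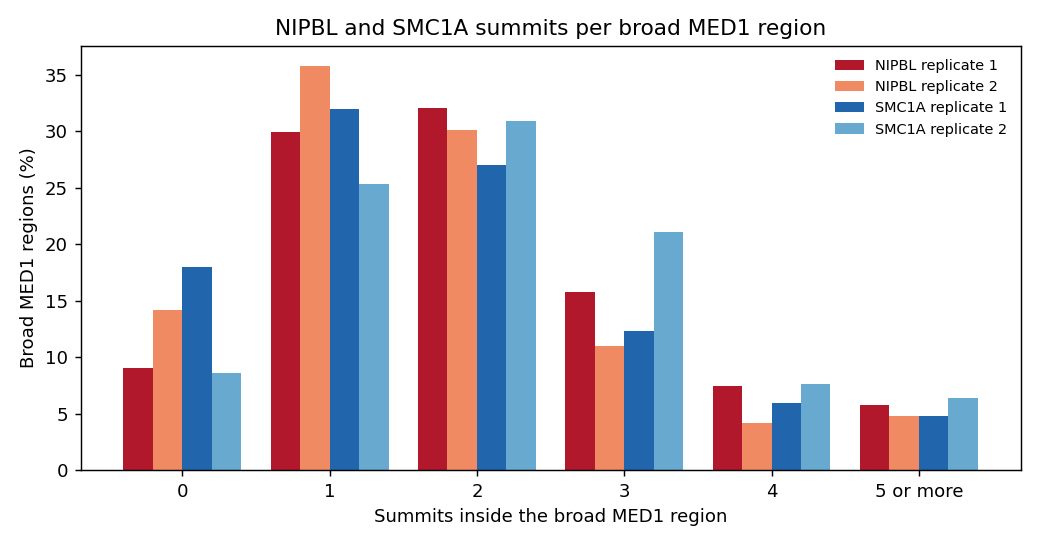
Percentage of the 1219 broad MED1 regions (vertical axis) by the number of summits inside (horizontal axis), with a bar for each NIPBL and SMC1A library. Regions with 1 or 2 summits were the most common in all 4 libraries, and 4.76% to 6.40% held 5 or more.

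The broad regions took 11.8% and 13.8% of all NIPBL peaks but 3.75% and 3.96% of all SMC1A peaks. In number these were 2522 and 2117 NIPBL summits and 2121 and 2702 SMC1A summits. The SMC1A lists are several times longer, so similar numbers inside are a smaller share of them. The other shared regions held 9106 and 7790 NIPBL summits and 7827 and 10323 SMC1A summits. There too SMC1A gave the smaller share of its lists, so this contrast was not particular to broad regions.

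Most broad regions held both proteins. Since each protein alone lay in most regions, a large overlap had to occur, and it does not show that they chose the same regions. A summit of all 4 libraries lay in 877 regions (71.9%, 69.3 to 74.5), against 30.7% of the other shared regions. NIPBL was found in both libraries in 1010 regions, in 1 library in 135 and in neither in 74 (82.9%, 11.1% and 6.07%), against 46.2%, 20.9% and 32.9% of the other shared regions. SMC1A was found in both in 990, in 1 in 134 and in neither in 95 (81.2%, 10.99% and 7.79%), against 48.3%, 21.98% and 29.7% of the others. The number of NIPBL summits and of SMC1A summits, summed over replicates, had a Spearman correlation of 0.61 across the 1219 regions, and both numbers also followed width, at 0.57 for NIPBL and 0.47 for SMC1A. These correlations are descriptions across regions that share libraries, control and width. Between replicates of a protein, the correlation was 0.64 for NIPBL and 0.69 for SMC1A, and 83.8% and 82.4% of regions had numbers within 1 of each other.

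A minority of broad regions carried a single protein. NIPBL was present in at least 1 library, with no SMC1A summit in either, in 68 regions (5.58%), against 12.4% of the other shared regions. In 44 of them (3.61% of members, against 5.95% of the others) NIPBL was found in both libraries. The most NIPBL summits without SMC1A were in chr5:149789191-149793626, with 5 and 2 in the NIPBL libraries. SMC1A without NIPBL was found in 47 regions (3.86%), against 15.6% of the other shared regions. In 28 of them (2.30% of members, against 8.77% of the others) SMC1A was found in both libraries. The widest of the 47, chr10:102756193-102759293, held 1 and 2 SMC1A summits in 3101 bp. Its MED1 replicate 2 fold enrichment of 6.30 was low among the members, though at percentile 71.4 of the whole replicate 2 list. Only 27 regions (2.21%, 1.46 to 3.21) had no summit in any of the 4 libraries, against 17.3% of the other shared regions. Their median width was 2283 bp. The widest, chr14:22850549-22854526, spanned 3978 bp at a MED1 fold enrichment of 25.8, above the upper quartile of 20.3 in the members.

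The number of summits grew with width, while their density fell at each step for SMC1A and unevenly for NIPBL. NIPBL replicate 1 averaged 1.49 summits in regions of 2 to 3 kb, 2.24 at 3 to 5 kb, 4.09 at 5 to 10 kb and 6.52 above 10 kb, and SMC1A replicate 2 averaged 1.68, 2.40, 4.02 and 6.44. Per kb, the same classes held 0.625, 0.592, 0.615 and 0.542 NIPBL replicate 1 summits, and 0.702, 0.636, 0.606 and 0.536 SMC1A replicate 2 summits. From the narrowest to the widest of these classes, SMC1A replicate 1 went from 0.541 to 0.423 and NIPBL replicate 2 from 0.522 to 0.469. All 4 libraries had their lowest density in the widest class. All 153 regions above 5 kb held a NIPBL summit in both libraries. SMC1A replicate 1 had a summit in 93.8% of those of 5 to 10 kb and in 96% of those above 10 kb, and SMC1A replicate 2 in 99.2% and 100%. Over all members the density was 0.607 and 0.510 per kb for NIPBL and 0.511 and 0.651 for SMC1A, below the 0.805 and 0.689 for NIPBL and 0.692 and 0.913 for SMC1A in the other shared regions.

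**Figure D3:**
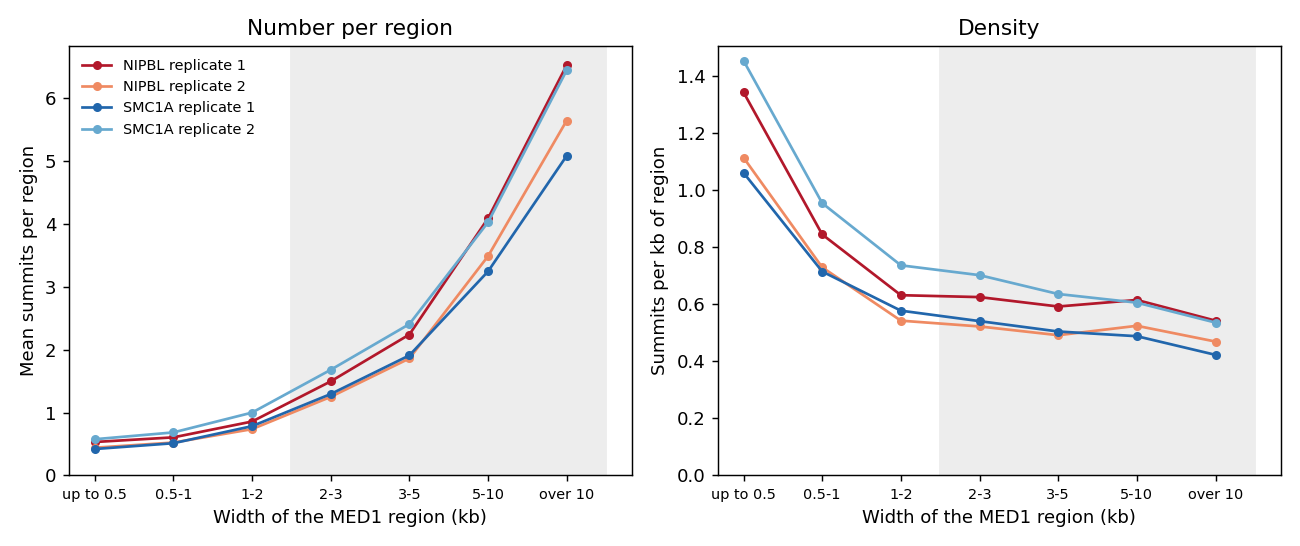
Mean number of summits per MED1 region (left) and summits per kb of region (right) by width class in kb, with a line for each NIPBL and SMC1A library and broad classes shaded. The number per region rises in every class, and in broad classes the density stays between 0.423 and 0.702 per kb.

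The regions on both sides of the threshold held overlapping numbers of summits. The 6 members just above 2000 bp, at 2002 to 2005 bp, held 1 to 3 NIPBL replicate 1 and 0 to 2 NIPBL replicate 2 summits, with 0 to 1 SMC1A replicate 1 and 0 to 2 SMC1A replicate 2 summits. The 5 shared regions just under it, at 1996 to 1998 bp, held 0 to 2 and 0 to 1 NIPBL summits and 0 to 2 SMC1A summits in each library.

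Inside the broad regions, summits were spread along the interior and scarce at the rims. Only 3.17% and 2.13% of NIPBL summits and 5.42% and 5.44% of SMC1A summits lay within 200 bp of an edge, although that rim made up 11.7% of the length. The density in the rim was 0.164 and 0.0923 per kb for NIPBL and 0.236 and 0.301 for SMC1A, and in the interior 0.666 and 0.565 for NIPBL and 0.547 and 0.697 for SMC1A. In the first kb outside, it was 0.134 and 0.0767 for NIPBL and 0.118 and 0.162 for SMC1A. The rim was therefore closer to the flank than to the interior in all 4 libraries. Neighbouring broad regions were not taken out of these flanks, and 13.9% of members had another within 1 kb. MED1 replicate 1 summits, at 3.01% within 200 bp of an edge, were as scarce there.

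**Figure D4:**
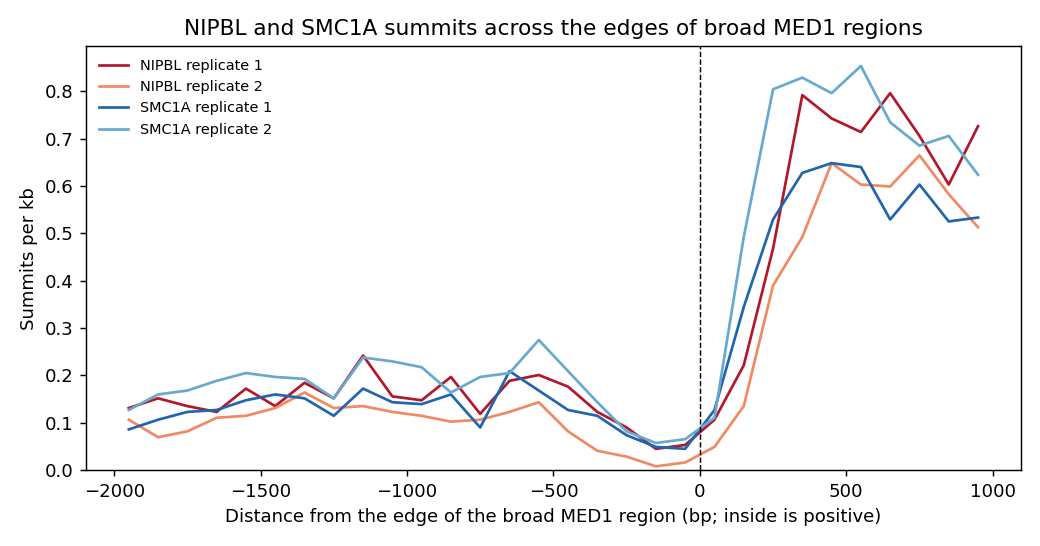
Summits per kb (vertical axis) in steps of 100 bp by distance in bp from the edge of broad MED1 regions, inside positive and both edges combined, with a line for each NIPBL and SMC1A library. Density is lowest in the 200 bp outside the edge and reaches the level of the interior by 400 to 500 bp inside it. Positions outside an edge can lie in a neighbouring broad region.

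The middle 50% of the length held somewhat more than 50% of NIPBL summits and about 50% of SMC1A summits. The shares were 54.0% (52.0 to 55.9) and 56.4% (54.3 to 58.5) for NIPBL, and 50.8% (48.6 to 52.9) and 50.5% (48.6 to 52.4) for SMC1A. Both NIPBL libraries lay above both SMC1A libraries. The means were 55.2% ± 1.72 for NIPBL and 50.6% ± 0.184 for SMC1A (SD, n = 2 libraries each), a difference of 4.53 points with p = 0.333, the smallest that the exact permutation test of 2 against 2 libraries can give. With the length divided into 10 equal bins, the outermost bins held 5.51% and 5.35% of NIPBL replicate 1 summits and 7.22% and 7.77% of SMC1A replicate 2 summits, while each bin between them held 9.40% to 11.95% in these libraries. In shared regions of 1 to 2 kb the middle 50% held more, with 68.2% and 71.1% of NIPBL summits and 59.1% and 59.4% of SMC1A summits. Neighbouring summits of a library inside a broad region were a median of 993 and 1029 bp apart for NIPBL and 1003 and 958.5 bp for SMC1A.

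The MED1 replicate 2 summit itself was occupied more often in broad regions than in the other shared regions. A NIPBL summit lay within 200 bp of it in 72.8% and 71.1% of broad regions, against 55.0% and 48.7% of the others. For SMC1A the shares were 58.9% and 70.9% in broad regions, against 44.9% and 59.2% in the others. The differences averaged 20.1 ± 3.26 points for NIPBL and 12.8 ± 1.63 points for SMC1A (SD, n = 2 libraries each), with all 4 libraries higher in broad regions. No test over samples was made, because both kinds of region were read in the same libraries. Without MED1 replicate 1 the differences were 44.4 and 29.6 points, and without MED1 replicate 2 they were 35.6 and 20.9 points. With each list reduced to its strongest 15357 peaks, the SMC1A difference was -1.41 points.

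This difference was not found within classes of MED1 strength. Within the top 5% of the replicate 2 list by fold enrichment, NIPBL was near the MED1 summit in 86.8% and 85.7% of 721 broad regions and in 86.7% and 85.9% of 1529 others. SMC1A was near it in 71.8% and 79.8% of these broad regions and in 74.4% and 84.9% of the others. Averaged over the 2 libraries, the broad regions differed from the others by -0.0292 points there, by -4.55 points in percentiles 90 to 95, by -12.7 in percentiles 80 to 90 and by -3.02 in the weakest 80% for NIPBL. The same differences for SMC1A were -3.86, -5.72, -15.4 and -0.887 points. These classes were chosen after seeing the data, and inside a class the 2 kinds of region were not matched further in strength. Occupancy at the MED1 summit went up with MED1 strength in both kinds of region, and broad regions of percentiles 80 to 90 lay below the others in all 4 libraries.

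**Figure D5:**
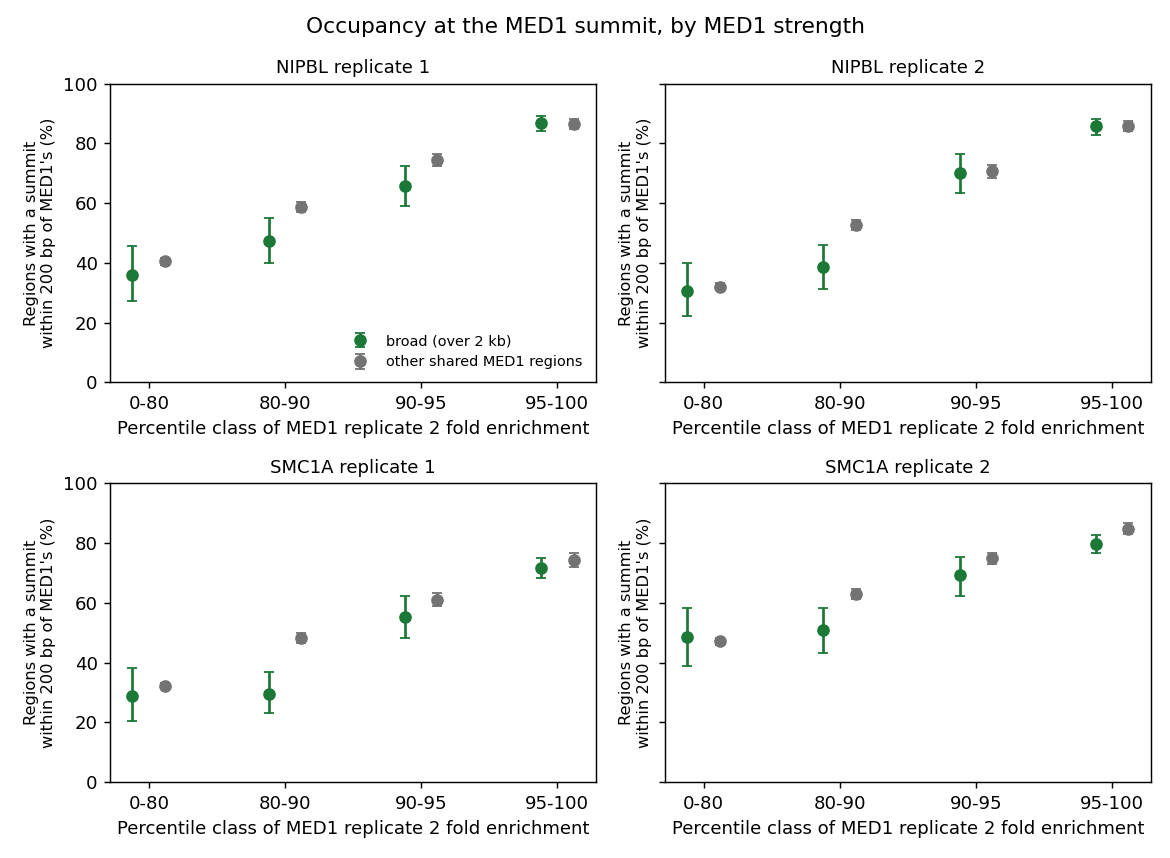
Percentage of MED1 regions with a summit within 200 bp of the MED1 replicate 2 summit, by percentile class of MED1 fold enrichment, in a panel for each library. Points are broad regions (left, green) and other shared regions (right, grey) with exact 95% binomial intervals, and broad regions stand at or below the others in all classes but the weakest of SMC1A replicate 2 (48.6% and 47.1%) and the strongest of NIPBL replicate 1 (86.8% and 86.7%).

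NIPBL peaks in broad regions were of ordinary strength for their lists, and SMC1A peaks were weak for theirs. The median percentile of fold enrichment within the library's own list was 47.3 and 48.6 for NIPBL and 17.0 and 22.7 for SMC1A. In the other shared regions it was 58.0 and 55.3 for NIPBL and 18.8 and 25.4 for SMC1A. NIPBL peaks outside shared MED1 regions stood at 45.0 and 44.9, and SMC1A peaks there at 56.9 and 57.3. SMC1A peaks were thus low in their lists in both kinds of shared MED1 region. The strongest peak of each broad region had a median percentile of 71.8 and 69.0 for NIPBL and 28.6 and 40.3 for SMC1A. In the other shared regions, which have fewer peaks to choose from, it was 61.2 and 57.8 for NIPBL, and 19.98 and 27.4 for SMC1A.

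Of the SMC1A peaks in the interior of broad regions, a small share was strong. At 500 bp or more from an edge, 7.60% and 14.7% of SMC1A peaks belonged to the upper 50% of their list, against 26.1% and 24.2% at 1 to 5 kb outside. The first kb outside was also low, at 15.6% and 16.5%. For NIPBL the same shares were 48.3% and 49.8% inside, against 40.9% and 45.5% outside. The share inside was thus lower than outside in both SMC1A libraries and higher in both NIPBL libraries. That difference between proteins was not tested. These are shares of the peaks at each place and not numbers of strong peaks per kb, which were not computed. In number, SMC1A peaks of the upper 50% were 119 and 289 in the interior, and 185 and 240 at 1 to 5 kb outside, over unequal lengths. An SMC1A peak of the upper 50% in both libraries lay in 195 broad regions (16.0%). Of these, 92.8% and 89.2% held NIPBL in replicates 1 and 2, close to the shares over all members. The share of 16.0% has no counterpart from the other shared regions here, so whether it is low or high for MED1 regions is not known.

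Many summits inside broad regions had a summit of another library within 200 bp. Of NIPBL replicate 2 summits, 68.3% had a NIPBL replicate 1 summit within 200 bp, and 57.3% of replicate 1 summits had one of replicate 2. For SMC1A, 76.1% of replicate 1 summits had one of replicate 2, and 59.7% the other way. In the other shared regions these 4 shares were higher, in the same order 79.4%, 67.9%, 84.7% and 64.4%. Inside broad regions, 49.1% to 63.2% of NIPBL summits had an SMC1A summit within 200 bp over the 4 pairs of libraries. Of SMC1A summits there, 49.4% to 58.7% had a NIPBL summit. A MED1 replicate 1 summit lay within 200 bp of 60.0% and 62.9% of NIPBL and of 58.7% and 57.4% of SMC1A summits. In the other shared regions that share was 86.8% and 88.9% for NIPBL and 82.4% in each SMC1A library. These shares were not adjusted for the width of the regions or for the density of summits.

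A part of the broad regions lay in groups along the genome, while most were single at a distance of 10 kb. Of the 1219, 486 (39.9%) had another broad region within 10 kb, edge to edge, while 1389 of the other shared regions (10.0%) had a broad region that near. The median distance to the nearest broad region was 26.3 kb from a broad region and 493 kb from another shared region. Both sets come from the lists that chose the members, so these values are a description. Neighbours at most 10 kb apart formed 932 groups, of which 733 were single regions, 138 had 2, 41 had 3, 14 had 4, 5 had 5 and 1 had 6. Gaps inside groups had a median of 2656 bp, and the smallest was 52 bp. The median gap was thus about as long as a member of median width.

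Grouped regions were wider than single ones, with medians of 2985 and 2585 bp, and held NIPBL slightly more often and SMC1A about as often. A summit lay in 93.8% and 87.9% of grouped and in 89.1% and 84.4% of single regions for NIPBL. For SMC1A it lay in 82.3% and 91.2% of grouped and in 81.9% and 91.5% of single regions. Per kb, grouped regions held 0.572 and 0.484 NIPBL and 0.467 and 0.578 SMC1A summits, and single regions held 0.636 and 0.531 NIPBL and 0.546 and 0.708 SMC1A summits.

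The group with most regions, at chr6:286285-342845, had 6 broad regions in 56.6 kb that covered 54.7% of the span. They held 17 and 13 NIPBL and 19 and 21 SMC1A summits. The longest group, chrX:12988619-13045916, had 5 regions in 57.3 kb with 13 and 11 NIPBL and 14 and 16 SMC1A summits. The group at chr1:12111279-12140100 had 8 summits in each of the 4 libraries over 5 regions, whereas 5 regions at chr6:26020397-26057654 had 7 and 9 NIPBL summits but 1 SMC1A summit in each library. A second group nearby, chr6:26183535-26218614, held 8 and 5 NIPBL and 3 and 7 SMC1A summits in 5 regions. The balance between the proteins therefore differed between groups of equal size.

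On a scale of 1 Mb, 557 windows held a broad region, and the 95 windows with at least 4 held 43.6% of the members. The fullest window was at 26 to 27 Mb of chromosome 6, with 17 regions. The share of 43.6% has no counterpart from the other shared regions here, so whether it is high for MED1 regions is not known. Within 1 Mb, another broad region lay near 84.3% of broad regions, and a broad region near 63.7% of the other shared regions. Chromosome 6 carried 9.02% of broad regions (7.47 to 10.8) and 6.10% of the other shared regions. Chromosome 20 carried 1.48% (0.877 to 2.32) and 2.89%.

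The stretch of chromosome 6 from 26 to 28 Mb stood apart in its cohesin signal. It was chosen after its values were seen, and no test was made. Its 26 broad regions had a median MED1 fold enrichment of 38.7 and a median width of 4117.5 bp, both above the values of the whole set. NIPBL was found in both libraries in 24 of them, while SMC1A was found in both in 8 and in neither in 11. Density was 0.465 and 0.418 per kb for NIPBL, and 0.121 and 0.186 for SMC1A. This stretch held 2.13% of all members but 10 of the 68 regions with NIPBL and no SMC1A (14.7%), among them chr6:27098513-27102711 and chr6:27112190-27116564. The cause was not tested.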

How the data were processed

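Peaks were called by the authors for 1 ChIP library at a time, with 2 pooled whole cell extracts as control, per the labels. Per the submitters' processing notes, hg19, MACS2 2.1.0, BWA 0.7.12 and Trimmomatic 0.33 were used, with settings not given in the sources here. Fold enrichment, as deposited, is the ratio of ChIP to control at the summit, and evidence is deposited as −log10 p and −log10 q. Every deposited peak passed a q-value of 0.05. Python 3.11.15, numpy 2.4.6, scipy 1.17.1 and pandas 2.3.3 were used to count summits in regions, with coordinates on hg19, 1-based, and to solve fragment pileups from fold enrichment and p-value, which assumes the formulas of MACS2. A broad call in 1 library depends on its depth and on how the caller joined neighbouring signal.

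Members, regions and lists were chosen with earlier results of these data known. Named regions followed a fixed rule: the widest, those with most NIPBL or SMC1A summits, the most NIPBL without SMC1A, the widest with SMC1A alone or with neither, those next to 2000 bp with ties, and the largest groups. Not all of these are printed. Proteins were compared by a two-sided exact permutation test over libraries. Alternatives changed the width threshold, the MED1 replicates, the q-value, list length, distances and libraries. Counting steps were tested on simulated data. Sequences, gene names, motifs and marker lists on hg19 were not used here.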

Additional observations from a re-analysis of the deposited data

How the results depend on the processing

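NIPBL minus SMC1A in the share of broad regions holding a summit (1.68 points) was -0.902 at a −log10 q of at least 5, and -2.99 to 6.36 without 1 NIPBL or SMC1A replicate; without MED1 replicate 2 it was 7.51. The difference in summits per region (-0.0755) was 0.180 above 5000 bp, 1.54 with equal numbers of top peaks, and -0.314 to 0.210 without 1 library, the upper end without MED1 replicate 2. Neither direction was therefore fixed. The difference in the middle 50% kept its sign in all 13 alternatives. Blocking by replicate number or leaving out 1 NIPBL or SMC1A library could not turn it, because both NIPBL values lay above both SMC1A values. It was 26.1 points with equal top peaks. In that setting the share of regions holding a summit was 74.4 points lower for SMC1A than for NIPBL, so its SMC1A part rests on fewer regions. With the replicate number as a block (sign-flip, exact permutation), the differences were 1.68, -0.0755 and 4.53, with p of 1, 1 and 0.5. Same-numbered libraries did not deviate together across regions in summits per region (r = -0.03). A correlation across regions cannot see a shift common to a whole library. It therefore does not settle whether the replicate number pairs libraries, and results are given with and without the block.

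For the difference at the MED1 summit (20.1 points for NIPBL, 12.8 for SMC1A), NIPBL gave 26.6 above 3000 bp, 32.5 above 5000 bp, 15.5 within 100 bp and 24.4 within 500 bp. SMC1A gave 18.5, 23.6, 9.93 and 15.8 in the same order, 14.5 at a −log10 q of at least 5 and -1.41 with equal top peaks. Leaving out a MED1 library changed both the members and the regions they were compared with: without MED1 replicate 1 the values were 44.4 and 29.6, and without MED1 replicate 2, which left 233 broad regions, 35.6 and 20.9. Leaving out 1 replicate of any protein gave 17.8 to 44.4 for NIPBL and 11.7 to 29.6 for SMC1A. Within classes of MED1 strength, chosen after seeing the data, NIPBL gave -3.02, -12.7, -4.55 and -0.0292, and SMC1A -0.887, -15.4, -5.72 and -3.86, from weakest to strongest. Apart from list length and these classes, every alternative kept these 2 differences positive.

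The share of broad regions with another within 10 kb (39.9%) was 29.2% above 3000 bp, 18.3% above 5000 bp and 35.1% where MED1 replicate 1 covered at least 50% of the region. It was 29.2% within 5 kb, 46.9% within 20 kb, 57.0% within 50 kb and 64.2% within 100 kb. Without MED1 replicate 1 it was 39.7%, and without MED1 replicate 2, which left 233 broad regions, 42.1%. Causes of these changes were not tested.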

Other observations

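Of the MED1 replicate 2 peaks above 2000 bp, 8 met no replicate 1 peak and were left out. They were 2013 to 2424 bp wide, with a median fold enrichment of 5.83, against 14.1 in the members. NIPBL summits lay in 5 and 4 of them, and SMC1A summits in 5 in each library.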
